A study of Mus musculus with 9 samples.

Results

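The DNA replication genes are 44 genes that encode the proteins which mark, open and copy chromosomal DNA, and the enzymes that supply its building blocks. They were taken by name from a list of replication proteins, whose rule used no measured value although earlier results of these data were known when it was drawn up, and all 44 were found among the 24318 genes of both deposited tables. RNA-seq was performed on N2A cells, a mouse neuroblastoma line used as a neuronal cell model, in 3 groups of 3 biological replicates. Cells were lipofected with a scramble siRNA (scramble), an siRNA against the RNA exosome subunit EXOSC3 (siEXOSC3) or an siRNA against the putative RNA helicase DDX1 (siDDX1). The labels give the scramble cells as WT and the others as EXOSC3 knockdown and DDX1 knockdown, and list no other treatment for any group, so all groups share the same line, the transfection and the absence of a drug. All values therefore come from 1 tumor line, and the time from transfection to harvest is not given in the sources used here.

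Replication starts when the origin recognition complex and the licensing factors CDC6 and CDT1 load the ring of MCM proteins onto DNA in G1 phase. In S phase the MCM ring is activated by CDC45 and the GINS complex, and polymerase alpha-primase, polymerase epsilon, polymerase delta, the PCNA clamp and its loader copy the strands behind it. Many of these genes are transcribed as cells pass from G1 into S phase, when E2F factors are released from proteins of the RB family, and a proliferating tumor line such as N2A keeps them on.

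Expression was given as FPKM, fragments scaled for transcript length and library size, in 2 tables. Each table held 1 knockdown and the same 3 scramble libraries and was scaled on its own, so each knockdown was compared with scramble within its table. The number of reads behind an FPKM value is unknown, so no counting interval is given. A gene was called changed at a limma adjusted p under 0.05 on log2(FPKM + 1), a scale that understates the change of low genes. With 3 libraries against 3, an exact permutation test of a single gene cannot go below p = 0.1.

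The targeted transcripts followed their labels. Exosc3 was at 45.8, 43.8 and 42.7 FPKM in scramble and at 6.84, 7.68 and 6.01 in siEXOSC3, which is 15.5% ± 1.90 of scramble (SD, n = 3). Ddx1 was at 129.6, 126 and 119 FPKM in scramble and at 28.0, 28.7 and 34.8 in siDDX1, which is 24.4% ± 2.99. Each target lay below scramble in all 3 libraries, with adjusted p = 1.11e-05 for Exosc3 and 9.53e-05 for Ddx1.

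One library of each knockdown stood closer to scramble than the others over the replication genes. The median difference of the 44 genes from the scramble mean, on the log2 scale, was -0.29, -0.07 and -0.44 in siEXOSC3 replicates 1, 2 and 3, with 41, 27 and 40 genes below 0. It was -0.27, -0.22 and -0.05 in siDDX1 replicates 1, 2 and 3, with 39, 40 and 27 genes below 0. Each scramble library set against the mean of the other two gave 0.03, -0.09 and 0.05 in the siEXOSC3 table. siEXOSC3 replicate 2 and siDDX1 replicate 3 thus lay inside the range of the scramble libraries, and they were also the libraries with the most targeted transcript left in their group. The part of that difference in the results was not tested. Counts are given below with and without these libraries.

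All 44 genes passed the filter of a mean of at least 1 FPKM in both tables, and most lay lower after either knockdown. In siEXOSC3, 17 decreased, 1 increased and 26 were not called. Of all 11242 genes tested in that table, 15.7% decreased and 16.7% increased. The median log2 fold change was -0.29 for the replication genes and -0.01 for all genes. For 20 genes all siEXOSC3 libraries lay below all scramble libraries, and for 1 they lay above, against 25.9% and 23.8% of all genes. Without siEXOSC3 replicate 2 the count of decreased genes was 35, and 22.3% of all genes were then called decreased. It was 6, 10 and 7 without scramble replicate 1, 2 or 3 and 7 without siEXOSC3 replicate 1, beside 5.17, 8.27, 7.15 and 7.73% of all genes, and the 1 increase was lost without scramble replicate 1 or 3 or siEXOSC3 replicate 1.

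In siDDX1, 9 genes decreased, 1 increased and 34 were not called, where 5.03% of all 11104 genes tested decreased and 5.61% increased. The median log2 fold change was -0.16, against -0.00059 for all genes. All siDDX1 libraries lay below all scramble libraries for 19 genes and above them for 2, against 17.8% and 17.0% of all genes. Without siDDX1 replicate 3, 24 genes were called decreased, beside 15.4% of all genes. The count was 1, 5 and 1 without scramble replicate 1, 2 or 3, and 3 and 2 without siDDX1 replicate 1 or 2, beside 0.522, 2.11, 0.586, 1.96 and 1.56% of all genes, and without each of those 5 libraries no gene was called increased. In bulk RNA, fewer cells in S phase and less RNA per cell cannot be told apart. The knockdowns share their scramble libraries, so their lists are not independent of each other, and the difference between the knockdowns was not tested.

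**Figure D1:**
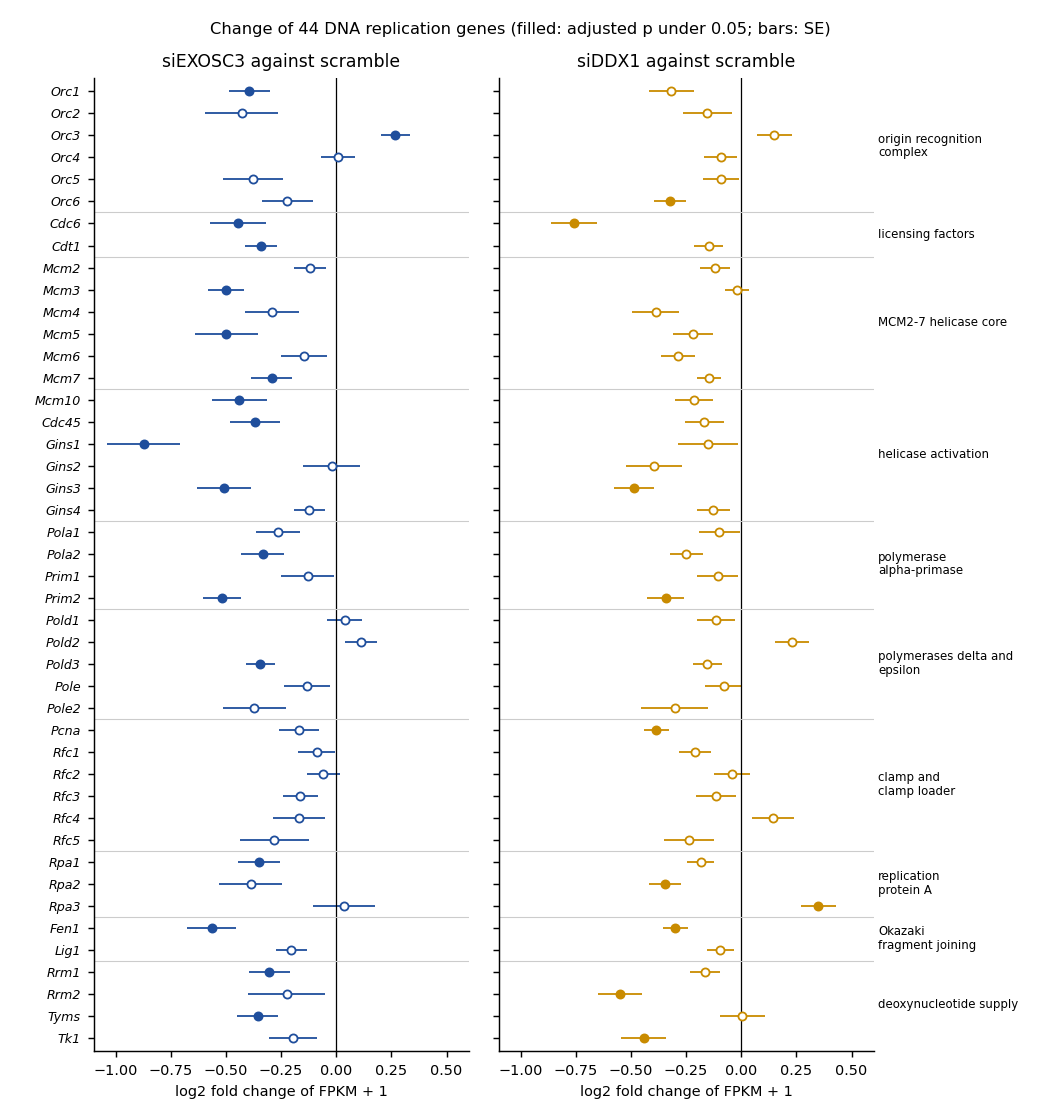
Log2 fold change of FPKM + 1 for each of the 44 genes in siEXOSC3 (left) and siDDX1 (right) against the scramble libraries of the same table, grouped by role, with bars for the SE (n = 3 against 3). Filled points passed a limma adjusted p under 0.05: 17 lie below 0 and 1 above in siEXOSC3, and 9 below and 1 above in siDDX1.

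**Figure D2:**
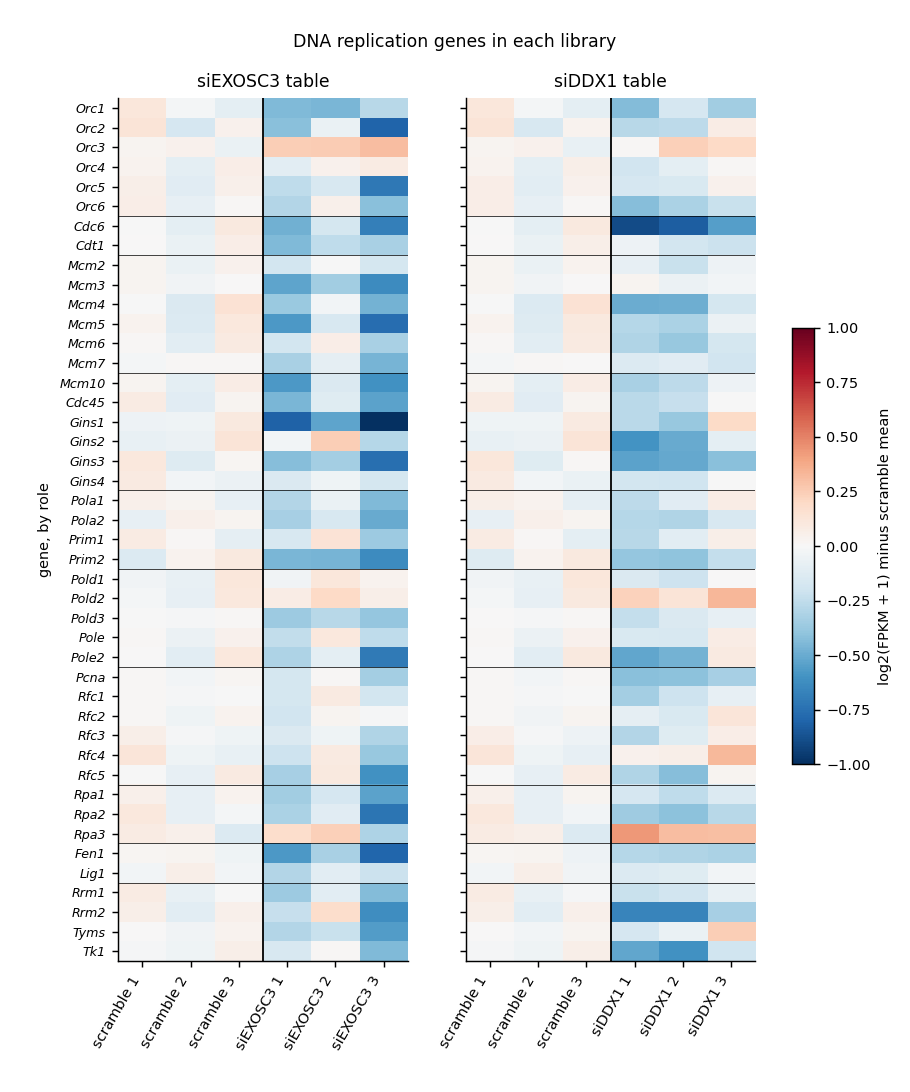
The same genes in each library, as log2(FPKM + 1) minus the mean of the scramble libraries of the table, with blue for lower and red for higher values and the scale cut at -1 and 1. The columns of siEXOSC3 replicate 2 and siDDX1 replicate 3 are the palest of the knockdown columns, with 27 genes below 0 in each.

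The promoter letters of these genes were not used in choosing them. RefSeq windows on GRCm38.p6, from 250 bases before to 50 after a transcription start, were found for 37 of the 44 genes. The E2F-type strings TTTCCCGC, TTTCGCGC, TTTGCCGC and TTTGGCGC, searched on both strands, occurred in 15 of the 37 genes (40.5%), against 2.605% of 27025 genes with a window. The CCAAT box, searched as CCAAT, occurred in 62.2% against 41.1%. The CHR element of late cell cycle genes, searched as TTTGAA, occurred in 13.5% against 20.2%. The windows of the replication genes were also richer in GC, with a median of 60% against 52.8%. The strings hold mostly G and C next to a run of T, and the share was not adjusted for GC content.

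Windows of 4 genes are shown, from 170 bases before to 30 after the start. Each gene is described below with values in every library, carries such a string upstream of the start and decreased in at least 1 knockdown. Mcm7 also has such a string upstream in a window and decreased in siEXOSC3, but its library values are not listed below. Capitals mark the E2F-type string, read from either strand, and all 4 genes lie on the plus strand of GRCm38.p6. The Cdc6 window is chr11:98907981-98908180 and its string begins 138 bases before the start. The Gins3 window is chr8:95633389-95633588, with the string 41 bases before the start. The Orc1 window is chr4:108579284-108579483, with the string 27 bases before the start. The Mcm5 window is chr8:75109339-75109538 and holds 2 overlapping strings on opposite strands, which begin 153 and 149 bases before the start.
Cdc6: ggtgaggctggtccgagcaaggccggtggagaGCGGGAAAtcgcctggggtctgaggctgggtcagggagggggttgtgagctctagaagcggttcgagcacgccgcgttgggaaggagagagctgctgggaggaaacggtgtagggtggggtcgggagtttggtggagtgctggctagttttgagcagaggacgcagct
Gins3: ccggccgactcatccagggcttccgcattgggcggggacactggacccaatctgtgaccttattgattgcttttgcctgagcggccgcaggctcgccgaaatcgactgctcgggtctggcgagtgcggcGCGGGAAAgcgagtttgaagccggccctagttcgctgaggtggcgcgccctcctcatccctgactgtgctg
Orc1: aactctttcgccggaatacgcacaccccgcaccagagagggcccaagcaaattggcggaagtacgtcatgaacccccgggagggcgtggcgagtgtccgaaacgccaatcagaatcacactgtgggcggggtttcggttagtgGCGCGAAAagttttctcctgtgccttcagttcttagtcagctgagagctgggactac
Mcm5: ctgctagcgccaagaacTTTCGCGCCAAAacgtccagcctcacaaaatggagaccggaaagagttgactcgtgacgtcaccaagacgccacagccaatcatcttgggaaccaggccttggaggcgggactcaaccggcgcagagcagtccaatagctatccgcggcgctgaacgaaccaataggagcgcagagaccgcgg

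Genes with and without a string were then set side by side, with no test of the difference. In siEXOSC3, 8 of the 15 genes with a string decreased and 1 increased, with a median log2 fold change of -0.34, and 7 of the 22 without decreased, with a median of -0.25, where 15.7% of all genes decreased and 16.7% increased. In siDDX1, 2 of the 15 with a string decreased, with a median of -0.15, and 6 of the 22 without decreased and 1 increased, with a median of -0.18, where 5.03% of all genes decreased and 5.61% increased. These counts moved with the libraries. Without 1 library the decreased genes with a string were 3 to 13 in siEXOSC3 and 1 to 6 in siDDX1, and those without were 1 to 18 and 0 to 14, each at its lowest without scramble replicate 1, among others, and at its highest without siEXOSC3 replicate 2 or siDDX1 replicate 3. Cdc6, Gins3 and Orc1, whose windows are printed above, were the 3 replication genes with the lowest FPKM in scramble.

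In scramble cells the replication genes were well expressed. Their median was 34.0 FPKM, against 14.1 for all genes tested in the siEXOSC3 table, and 39 of 44 lay above that value. The highest were Rpa3 at 261 FPKM ± 21.1, Pcna at 179 ± 2.99 and Prim1 at 108 ± 6.51 (SD, n = 3), whose ranges did not overlap. The lowest were Cdc6 at 11.2 ± 0.84, Gins3 at 6.74 ± 0.63 and Orc1 at 6.03 ± 0.51, and the ranges of Gins3 and Orc1 overlapped. From Mcm3, ranked 11, to Lig1, ranked 22, the range of every gene overlapped that of the next, so that neighbours in this stretch of the order do not differ beyond their spread, while genes further apart in it, such as Mcm3 and Lig1, do not overlap. The median coefficient of variation over the 3 scramble libraries was 5.998%. Across the 44 genes the scramble level and the log2 fold change had a Spearman rho of 0.24 in siEXOSC3 and 0.02 in siDDX1, which is a description over genes that share the same libraries.

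The origin recognition complex, which binds origins and recruits the other factors, held 1 gene that decreased and 1 that increased among its 6 subunits in siEXOSC3, 16.7% each way, which is near the shares of all genes (15.7 and 16.7%), and 4 decreased without siEXOSC3 replicate 2. Orc1 (chr4:108252028-108288633, NCBIM37), the large ATPase subunit, was at 6.58, 5.93 and 5.57 FPKM in scramble and at 4.16, 4.10 and 4.78 in siEXOSC3. The siEXOSC3 libraries all lay below scramble, at 72.1% ± 6.22 of its mean, with a log2 fold change of -0.39 (SE 0.09, adjusted p = 0.0156). In siDDX1 it was at 4.16, 5.19 and 4.47 FPKM, again below every scramble library, but did not pass the test (log2 fold change -0.32, adjusted p = 0.0779). Orc1 overlaps the lincRNA Gm12743 on the opposite strand, and the nondirectional libraries cannot separate their reads.

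Orc6 (chr8:87823531-87832177), the smallest subunit, was at 46.6, 42.0 and 44.7 FPKM in scramble and at 32.8, 35.4 and 37.8 in siDDX1. The groups did not overlap and the log2 fold change was -0.32 (SE 0.07, adjusted p = 0.0285). In siEXOSC3 replicate 2 lay among the scramble libraries at 46.4 FPKM, with replicates 1 and 3 below them at 36.3 and 33.2 (log2 fold change -0.22, adjusted p = 0.168), and without replicate 2 Orc6 passed (-0.36, adjusted p = 0.00590). Orc3, singled out after its values were seen as the only replication gene that increased in siEXOSC3, was at 15.9, 16.1 and 14.8 FPKM in scramble and at 18.7, 18.7 and 19.5 in siEXOSC3 (log2 fold change 0.27, SE 0.07, adjusted p = 0.0179). All 3 of its siEXOSC3 libraries lay above scramble. Orc2, Orc4 and Orc5 were not called, with log2 fold changes from -0.43 to 0.01 in siEXOSC3 and from -0.15 to -0.09 in siDDX1. The Orc1 call was lost without scramble replicate 1 or siEXOSC3 replicate 1, the Orc3 call without scramble replicate 1 or 3 or siEXOSC3 replicate 1, and the Orc6 call without any 1 library other than siDDX1 replicate 3 (adjusted p up to 0.0767, 0.0681 and 0.130). The Orc6 call was also lost with no filter on low FPKM (adjusted p = 0.0536).

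Both licensing factors decreased in siEXOSC3 (2 of 2, beside 15.7% of all genes), and Cdc6 decreased in siDDX1 (1 of 2, beside 5.03%). Cdc6 (chr11:98769115-98785254), the ATPase that loads the MCM ring together with the origin recognition complex, was at 11.1, 10.3 and 11.9 FPKM in scramble and at 5.496, 5.84 and 7.23 in siDDX1. That is 55.7% ± 8.27 of scramble, with no overlap, and the log2 fold change of -0.76 (SE 0.11, adjusted p = 0.00751) passed the test without any 1 of the 6 libraries. No other replication gene fell as far in siDDX1. In siEXOSC3 Cdc6 was at 7.72, 9.82 and 6.60 FPKM against 11.2, 10.4 and 12.1 in scramble (log2 fold change -0.45, SE 0.13, adjusted p = 0.0296). Its replicate 2 lay just under the lowest scramble library, and the call was lost without any of the scramble libraries or siEXOSC3 replicate 1 (adjusted p up to 0.106) and with no filter on low FPKM (adjusted p = 0.0715).

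Cdt1 (chr8:125091915-125097028), the partner of CDC6 that delivers the MCM ring, was at 57.6, 54.9 and 60.2 FPKM in scramble and at 42.1, 48.0 and 45.6 in siEXOSC3. The groups did not overlap, and the log2 fold change of -0.34 (SE 0.07, adjusted p = 0.0101) passed without any 1 library. Its siDDX1 libraries, at 55.0, 50.1 and 49.1 FPKM, overlapped scramble at 57.1, 54.5 and 59.5 (adjusted p = 0.176). Cdt1 overlaps the annotated gene Gm20388 on the same strand, so that its reads may be shared.

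Of the 6 MCM subunits that form the helicase ring, 3 decreased in siEXOSC3 (Mcm3, Mcm5 and Mcm7), 50% beside 15.7% of all genes. None was called in siDDX1, where 5.03% of all genes decreased, and 4 fell there at an unadjusted limma p under 0.05, as 15.01% of all genes did. Mcm3 (chr1:20793055-20810359) was at 51.7, 49.5 and 51.0 FPKM in scramble and at 34.8, 39.7 and 32.5 in siEXOSC3. That is 70.3% ± 7.19 of scramble with no overlap, and the log2 fold change of -0.50 (SE 0.08, adjusted p = 0.00398) passed without any 1 library. In siDDX1 Mcm3 was at 51.1, 48.3 and 49.4 FPKM and overlapped scramble at 51.3, 49.1 and 50.4 (log2 fold change -0.02, SE 0.05, adjusted p = 0.852).

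Mcm5 (chr8:77633427-77652338) was at 41.7, 37.1 and 43.8 FPKM in scramble and at 27.1, 36.3 and 23.7 in siEXOSC3 (log2 fold change -0.50, SE 0.14, adjusted p = 0.0292). The highest siEXOSC3 library was again replicate 2, close to the lowest scramble library, and the call was lost without scramble replicate 1 or 3 or siEXOSC3 replicate 1 (adjusted p up to 0.106). Its siDDX1 values were 33.1, 32.3 and 38.9 FPKM, where replicate 3 overlapped scramble at 41.4, 36.8 and 43.3 (log2 fold change -0.22, adjusted p = 0.150), and without that replicate Mcm5 passed (-0.30, adjusted p = 0.0145). With no filter on low FPKM the siEXOSC3 calls of Mcm5 and Mcm7 were lost (adjusted p = 0.0715 and 0.0765), and that of Mcm7 was lost without any 1 library other than siEXOSC3 replicate 2 (adjusted p up to 0.124). The 3 decreased subunits in siEXOSC3 became 1, Mcm3, without siEXOSC3 replicate 1 or scramble replicate 1 or 3, and 5 without siEXOSC3 replicate 2, and in siDDX1 3 decreased without siDDX1 replicate 3. The 6 subunits had log2 fold changes from -0.50 to -0.12 in siEXOSC3 and from -0.39 to -0.02 in siDDX1. Mcm6 and Mcm4 lay just outside the threshold in siDDX1, at adjusted p = 0.0501 and 0.0545. The summed FPKM of the 6 subunits was 83.02% ± 10.9 of scramble in siEXOSC3 and 87.7% ± 4.10 in siDDX1.

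Among the 6 genes that turn the loaded ring into an active helicase, 4 decreased in siEXOSC3 (Mcm10, Cdc45, Gins1 and Gins3) and 1, Gins3, in siDDX1. These are 66.7 and 16.7% of the role, beside 15.7 and 5.03% of all genes. Without 1 library the counts were 1 to 4 in siEXOSC3 and 0 to 1 in siDDX1, other than 5 without siDDX1 replicate 3. Gins1 (chr2:150731136-150757016), a subunit of the GINS complex that joins CDC45 on the MCM ring, had the largest fall of the 44 genes in siEXOSC3. It was at 21.2, 21.2 and 23.5 FPKM in scramble and at 12.1, 14.9 and 8.41 in siEXOSC3, which is 53.8% ± 14.8 of scramble (log2 fold change -0.87, SE 0.17, adjusted p = 0.00716). All siEXOSC3 libraries lay below all scramble libraries, and the call held without any 1 library. In siDDX1 it was at 17.8, 16.5 and 24.998 FPKM, on both sides of the scramble values of 21.0, 21.0 and 23.2 (log2 fold change -0.15, adjusted p = 0.494). Without siDDX1 replicate 3, the library above scramble, Gins1 passed there too (log2 fold change -0.32, adjusted p = 0.00873).

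Gins3 (chr8:98157459-98168959), another GINS subunit, was at 7.33, 6.08 and 6.82 FPKM in scramble and at 4.77, 5.09 and 3.58 in siEXOSC3 (log2 fold change -0.51, SE 0.12, adjusted p = 0.0166). Gins3 in siDDX1 was at 4.30, 4.39 and 4.75 FPKM against 7.28, 6.04 and 6.74 in scramble (log2 fold change -0.49, SE 0.09, adjusted p = 0.0162). Neither knockdown overlapped scramble. The call was lost without scramble replicate 1 or 3 in both tables, and in siDDX1 also without siDDX1 replicate 1 or 2 (adjusted p up to 0.0737 and 0.0904). Gins2 and Gins4 were not called in either table, with log2 fold changes of -0.02 and -0.12 in siEXOSC3 and -0.40 and -0.13 in siDDX1. The calls of Mcm10 and Cdc45 were lost without any 1 library other than siEXOSC3 replicate 2 (adjusted p up to 0.101 and 0.129), and with no filter on low FPKM (adjusted p = 0.0651 and 0.0772).

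**Figure D3:**
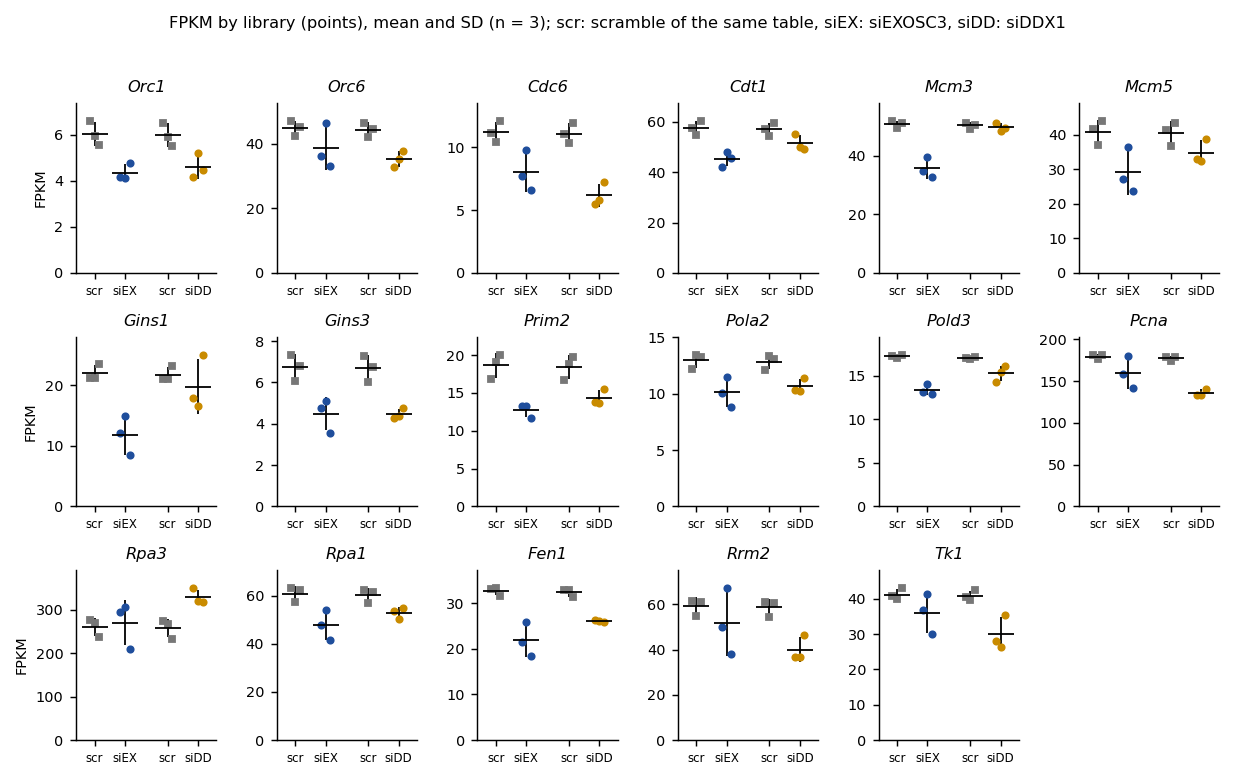
FPKM of the 17 genes described with values in every library, in the scramble libraries of each table (grey squares), siEXOSC3 (blue) and siDDX1 (yellow), each panel on its own linear axis from 0, with the mean and SD of 3 libraries. Gins1 falls to 53.8% of scramble in siEXOSC3 and overlaps scramble in siDDX1, Cdc6 falls to 55.7% in siDDX1, and the siDDX1 points of Rpa3 all lie above scramble.

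Polymerase alpha-primase, which lays the RNA-DNA primer that starts every new strand, had less RNA of its large primase subunit in both knockdowns. Prim2 (chr1:33510656-33726631) was at 16.9, 19.0 and 20.02 FPKM in scramble and at 13.3, 13.2 and 11.6 in siEXOSC3. The groups did not overlap, and the log2 fold change of -0.52 (SE 0.09, adjusted p = 0.00462) passed without any 1 library. In siDDX1 Prim2 was at 13.9, 13.7 and 15.5 FPKM, below the scramble values of 16.7, 18.9 and 19.8 (log2 fold change -0.34, SE 0.08, adjusted p = 0.0388).

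Pola2 (chr19:5940543-5964206), the accessory subunit of polymerase alpha, was at 12.2, 13.4 and 13.2 FPKM in scramble and at 10.1, 11.5 and 8.81 in siEXOSC3 (log2 fold change -0.33, SE 0.10, adjusted p = 0.0324). Pola2 in siDDX1 was at 10.4, 10.2 and 11.4 FPKM and did not pass the test (log2 fold change -0.25, adjusted p = 0.0677), though it did without siDDX1 replicate 3 (-0.29, adjusted p = 0.0140). Neither knockdown overlapped scramble. The catalytic subunit genes Pola1 and Prim1 were not called, with log2 fold changes of -0.27 and -0.13 in siEXOSC3 and -0.10 and -0.11 in siDDX1. The Prim2 call in siDDX1 was lost without any 1 library other than siDDX1 replicate 3, and the Pola2 call in siEXOSC3 without any 1 other than siEXOSC3 replicate 2 (adjusted p up to 0.143 and 0.101). With no filter on low FPKM both calls were lost (adjusted p = 0.0710 and 0.0664), and with quantile normalization that of Prim2 in siDDX1 was (adjusted p = 0.0517).

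Of the 5 subunit genes of polymerases delta and epsilon, which copy the lagging and leading strands, 1 decreased in siEXOSC3, a share of 20% that is near the 15.7% of all genes, and 3 did without siEXOSC3 replicate 2. Pold3 (chr7:107230621-107270075), an accessory subunit of polymerase delta that binds PCNA, was at 17.2, 17.1 and 17.4 FPKM in scramble and at 13.2, 14.02 and 12.9 in siEXOSC3 (log2 fold change -0.34, SE 0.07, adjusted p = 0.00716). Its scramble values were within 1 FPKM of each other, all siEXOSC3 values lay below them, and the call held without any 1 library. In siDDX1 Pold3 was at 14.3, 15.4 and 16.1 FPKM, below every scramble library (adjusted p = 0.162). None of the 5 was called in siDDX1, where 1 fell and 1, Pold2, rose at an unadjusted limma p under 0.05 (20% each way, beside 15.01 and 15.1% of all genes). The catalytic subunit genes Pold1 and Pole had log2 fold changes of 0.04 and -0.13 in siEXOSC3 and -0.11 and -0.08 in siDDX1.

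Of the sliding clamp and its loader, the clamp gene was called in siDDX1, 1 of 6 genes (16.7%) beside 5.03% of all genes, and none in siEXOSC3. Pcna (chr2:132074898-132079050), the clamp that holds polymerases on DNA, was at 179, 175 and 179 FPKM in scramble and at 133, 134 and 141 in siDDX1. That is 76.4% ± 2.52 of scramble with no overlap, and the log2 fold change was -0.39 (SE 0.06, adjusted p = 0.00847). In siEXOSC3 replicate 2 was level with scramble at 180.3 FPKM, with replicates 1 and 3 below it at 159 and 141 (log2 fold change -0.17, SE 0.09, adjusted p = 0.178). Without that replicate Pcna passed in siEXOSC3 as well (-0.26, adjusted p = 0.0232). The siDDX1 call was lost without scramble replicate 1 or 3 (adjusted p up to 0.0591). Processed pseudogenes of Pcna are annotated and may share its reads.

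None of the 6 clamp and loader genes was called in siEXOSC3 with limma, and none had an unadjusted p under 0.05, where 15.7% of all genes were called as decreased and 23.4% fell at that unadjusted p. Without siEXOSC3 replicate 2, however, 5 of the 6 decreased, and without siDDX1 replicate 3, 4 of the 6 did in siDDX1. With all libraries, the log2 fold changes of the 6 genes in siEXOSC3 ran from -0.28 to -0.06. The 5 subunits of replication factor C, which opens the clamp and places it on DNA, were not called in siDDX1 either, where their log2 fold changes ran from -0.24 to 0.14. The summed FPKM of the clamp and loader was 89.9% ± 11.2 of scramble in siEXOSC3 and 84.8% ± 6.65 in siDDX1.

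Replication protein A, the heterotrimer that coats single-stranded DNA, had subunit genes that moved in opposite directions in siDDX1. Rpa3 (chr6:8205936-8209173), the smallest subunit, was at 274, 268 and 234 FPKM in scramble and at 349.5, 321 and 318 in siDDX1. All siDDX1 libraries lay above scramble, at 127% ± 6.69 of its mean, and the log2 fold change was 0.35 (SE 0.08, adjusted p = 0.0330). In the same libraries Rpa2, the middle subunit, decreased (log2 fold change -0.35, SE 0.07, adjusted p = 0.0229). Rpa3 in siEXOSC3 was at 295, 308 and 210.3 FPKM, around the scramble values of 276, 271 and 237 (log2 fold change 0.04, SE 0.14, adjusted p = 0.856), and the sign of that difference changed without scramble replicate 3 or siEXOSC3 replicate 1 or 2.

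Rpa1 (chr11:75111668-75161826), the large subunit that holds most of the DNA-binding domains, was at 63.0, 57.4 and 62.2 FPKM in scramble and at 47.7, 54.0 and 41.7 in siEXOSC3 (log2 fold change -0.35, SE 0.10, adjusted p = 0.0257). In siDDX1 it was at 53.6, 50.4 and 54.8 FPKM (log2 fold change -0.18, adjusted p = 0.0950), where it passed without replicate 3 (-0.21, adjusted p = 0.0337), and neither knockdown overlapped scramble. The Rpa1 call was lost without scramble replicate 1 or 3 or siEXOSC3 replicate 1 (adjusted p up to 0.0959) and with no filter on low FPKM (adjusted p = 0.0526). The Rpa3 call was lost without any 1 library other than siDDX1 replicate 3, and the Rpa2 call without scramble replicate 1 or 3 or siDDX1 replicate 1 or 2 (adjusted p up to 0.118 and 0.105). With no filter the Rpa3 call was lost too (adjusted p = 0.0621). Since Rpa3 carries most of the summed FPKM of the trimer, that sum was 97.03% ± 18.04 of scramble in siEXOSC3 and 116% ± 5.10 in siDDX1.

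Okazaki fragment joining was represented by the flap endonuclease gene Fen1 and the ligase gene Lig1. Fen1 (chr19:10273622-10278659), which removes the primer flap, was at 33.1, 33.2 and 31.6 FPKM in scramble and at 21.6, 25.9 and 18.4 in siEXOSC3. That is 67.3% ± 11.5 of scramble with no overlap, and the log2 fold change of -0.56 (SE 0.11, adjusted p = 0.00806) passed without any 1 library. In siDDX1 Fen1 was at 26.4, 26.1 and 25.9 FPKM, below the scramble values of 32.9, 33.0 and 31.3 (log2 fold change -0.30, SE 0.06, adjusted p = 0.0172), and that call was lost without any scramble library or siDDX1 replicate 2 (adjusted p up to 0.0934). Fen1 overlaps 1810006K21Rik and Gm10143 on the opposite strand, whose reads cannot be told apart from its own. Lig1, which seals the nick, was at 86.5% ± 5.83 of scramble in siEXOSC3 and 93.4% ± 4.07 in siDDX1, and was called in neither (adjusted p = 0.0568 and 0.327).

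Of the 4 genes of deoxynucleotide supply, Rrm1 and Tyms decreased in siEXOSC3 and Rrm2 and Tk1 in siDDX1 (50% in each, beside 15.7 and 5.03% of all genes), and without siEXOSC3 replicate 2 Rrm2 and Tk1 passed in siEXOSC3 as well. Rrm2 (chr12:25393106-25399011), the small subunit of ribonucleotide reductase that is made in S phase, was at 61.1, 54.3 and 60.5 FPKM in scramble and at 36.8, 36.6 and 46.4 in siDDX1 (log2 fold change -0.55, SE 0.10, adjusted p = 0.0152). The groups did not overlap, and replicate 3 was the highest of the siDDX1 libraries. In siEXOSC3 Rrm2 was at 50.1, 67.0 and 38.0 FPKM, with replicate 2 above every scramble library (61.6, 54.7 and 61.2) and replicates 1 and 3 below them (log2 fold change -0.23, adjusted p = 0.337). Without replicate 2 the log2 fold change was -0.43 (adjusted p = 0.0154).

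Tk1 (chr11:117676840-117687406), the thymidine kinase of the salvage pathway, was at 40.5, 39.5 and 42.4 FPKM in scramble and at 28.1, 26.5 and 35.4 in siDDX1 (log2 fold change -0.44, SE 0.10, adjusted p = 0.0327). All siDDX1 libraries lay below scramble, while in siEXOSC3 the values of 36.8, 41.5 and 30.01 FPKM overlapped it (log2 fold change -0.20, adjusted p = 0.192, and -0.30, adjusted p = 0.0268, without replicate 2). Tk1 overlaps Afmid on the opposite strand. Rrm1, the large reductase subunit, and Tyms, thymidylate synthase, decreased in siEXOSC3 with log2 fold changes of -0.30 (SE 0.09, adjusted p = 0.0393) and -0.36 (SE 0.09, adjusted p = 0.0219), and were at -0.16 and 0.0041 in siDDX1 (adjusted p = 0.150 and 0.983). The Rrm2 call was lost without scramble replicate 1 or 3 or siDDX1 replicate 1 or 2, the Tk1 call without any 1 library other than siDDX1 replicate 3, the Rrm1 call without any 1 other than siEXOSC3 replicate 2, and the Tyms call without any scramble library or siEXOSC3 replicate 1 (adjusted p up to 0.0821, 0.128, 0.142 and 0.0781). The calls of Tk1 and Rrm1 were also lost with no filter on low FPKM (adjusted p = 0.0723 and 0.0722).

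The other genes of the replication program were read from lists of related genes. Of 28 firing regulators and fork accessory factors, 9 decreased (32.1%) and 2 increased (7.14%) in siEXOSC3, with a median log2 fold change of -0.24, where 15.7 and 16.7% of all genes did. In siDDX1, 3 decreased (10.7%) and 1 increased (3.57%), with a median of -0.11, beside 5.03 and 5.61% of all genes. Dbf4, the activating subunit of the CDC7 kinase that fires origins, was at 48.5, 49.1 and 41.8 FPKM in scramble and at 29.98, 32.1 and 25.996 in siEXOSC3 (log2 fold change -0.65, adjusted p = 0.00316). Dna2, a nuclease and helicase that trims long flaps, fell by 0.52 on the log2 scale in siEXOSC3 (adjusted p = 0.0296) and by 0.43 in siDDX1 (adjusted p = 0.0440), and Wdhd1, which links the helicase to polymerase alpha, fell by 0.42 in siDDX1 (adjusted p = 0.0357). Wdhd1 was also called decreased in siEXOSC3, a call lost without scramble replicate 1 or 3 or siEXOSC3 replicate 1 (adjusted p up to 0.0938).

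Against that direction, Pold4, the smallest subunit of polymerase delta, rose in both knockdowns. It was at 4.61, 3.85 and 3.67 FPKM in scramble and at 9.85, 9.20 and 13.7 in siEXOSC3 (log2 fold change 1.23, SE 0.14, adjusted p = 0.00134). Pold4 in siDDX1 was at 8.33, 7.70 and 5.49 FPKM (log2 fold change 0.70, SE 0.14, adjusted p = 0.0233), and all knockdown libraries lay above all scramble libraries. The number of decreased factors in siEXOSC3 was 19 without siEXOSC3 replicate 2 and 4, 2, 5 and 4 without siEXOSC3 replicate 1 or scramble replicate 1, 2 or 3, where the share of all genes that decreased was 22.3, 7.73, 5.17, 8.27 and 7.15%. In siDDX1 it was 10 without siDDX1 replicate 3, where 15.4% of all genes decreased, and 0 without any other library, where 0.522 to 2.11% did. These shares also stand behind the counts without 1 library of the lists that follow. The calls of Dbf4 and Pold4 in siEXOSC3 held without any 1 library, that of Dna2 held only without siEXOSC3 replicate 2, and those of Dna2, Wdhd1 and Pold4 in siDDX1 held only without siDDX1 replicate 3 (adjusted p up to 0.107, 0.155, 0.138 and 0.105).

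The chromatin assembly list, histone chaperones and maintenance factors that travel with the fork, numbered 9 genes, of which 5 fell in siEXOSC3 (55.6%, beside 15.7% of all genes) and 1 fell in siDDX1 (11.1%, beside 5.03%), with medians of -0.31 and -0.19. Nasp, Asf1a and Rbbp7, all carriers of histones, fell by 0.39, 0.33 and 0.31 on the log2 scale in siEXOSC3 (adjusted p = 0.0287, 0.0209 and 0.0163), and Chaf1b, a subunit of chromatin assembly factor 1, fell by 0.31 in siDDX1 (adjusted p = 0.0215). Chaf1b was also among the 5 genes that fell in siEXOSC3. No gene of this list was called in siEXOSC3 without siEXOSC3 replicate 1 or scramble replicate 1 or 3, and 3 without scramble replicate 2. In siDDX1, 7 were called without siDDX1 replicate 3, and 0 without siDDX1 replicate 2 or any scramble library.

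Of 25 regulators of the G1/S transition tested, 8 decreased in each knockdown (32%), beside 15.7% of all genes in siEXOSC3 and 5.03% in siDDX1. The increases, 4 (16%) in siEXOSC3 and 2 (8%) in siDDX1, were near the 16.7 and 5.61% of all genes, and the median log2 fold changes were -0.12 and -0.15. In siEXOSC3 the largest changes were in Cdkn1a, which encodes the kinase inhibitor p21, Rb1, which encodes the E2F-binding protein RB, and Ccna2, the S-phase cyclin A2. Cdkn1a was at 41.6, 44.4 and 44.5 FPKM in scramble and at 73.6, 65.6 and 82.3 in siEXOSC3 (log2 fold change 0.75, SE 0.09, adjusted p = 0.00136). The log2 fold changes of Rb1 and Ccna2 were 0.62 and -0.60 (adjusted p = 0.00821 and 0.00570). Cdkn1a, Rb1 and Ccna2 were also called in siDDX1. Those calls were lost without any 1 library other than siDDX1 replicate 3 (adjusted p up to 0.176, 0.174 and 0.105).

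In siDDX1 the largest changes were in the cyclin E genes and Skp2, an F-box protein that targets p27 for degradation. Ccne2 was at 12.9, 13.4 and 17.3 FPKM against 22.7, 22.2 and 24.0 in scramble (log2 fold change -0.63, SE 0.11, adjusted p = 0.0128). Ccne1 was at 6.08, 5.09 and 6.27 FPKM against 9.72, 8.39 and 9.74 (log2 fold change -0.60, SE 0.10, adjusted p = 0.0120), and neither cyclin gene overlapped scramble. Skp2 had a log2 fold change of -0.52 (adjusted p = 0.0280). The 8 decreased genes of this list in siEXOSC3 became 3 without siEXOSC3 replicate 1 and 4 without scramble replicate 1 or 3. In siDDX1 they became 0 without scramble replicate 1 or 3, 5 without scramble replicate 2 and 4 without siDDX1 replicate 1 or 2, and the 2 increases were lost without each of these libraries. The calls of Cdkn1a, Rb1 and Ccna2 in siEXOSC3 held without any 1 library. Those of Ccne1 and Ccne2 in siDDX1 were lost without scramble replicate 1 or 3 (adjusted p up to 0.0700 and 0.0663), and that of Skp2 without any 1 library other than siDDX1 replicate 3 (adjusted p up to 0.117).

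Genes of the G2 and M phases, which the replication list does not hold, gave the highest share of decreased genes of the lists in siEXOSC3. Of 22 genes, 17 decreased (77.3%, beside 15.7% of all genes) and 0 increased, with a median log2 fold change of -0.44, and no gene had an unadjusted limma p under 0.05 in the upward direction. Aurka, a mitotic kinase, was at 51.8, 48.5 and 47.7 FPKM in scramble and at 26.6, 31.2 and 21.3 in siEXOSC3 (log2 fold change -0.90, SE 0.12, adjusted p = 0.00242), and Bub1b, of the spindle checkpoint, and Plk1, a mitotic kinase, fell by 0.66 each (adjusted p = 0.00106 and 0.00742). In siDDX1, Aurka was the 1 gene that decreased, 4.55% of the list beside 5.03% of all genes (log2 fold change -0.32, adjusted p = 0.0152), and the median was -0.16. The calls of Aurka, Bub1b and Plk1 in siEXOSC3 held without any 1 library. The siEXOSC3 count was 10 without siEXOSC3 replicate 1 or scramble replicate 1 and 11 without scramble replicate 2. The siDDX1 count was 8 without siDDX1 replicate 3 and 0 without siDDX1 replicate 2 or scramble replicate 1 or 3.

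**Figure D4:**
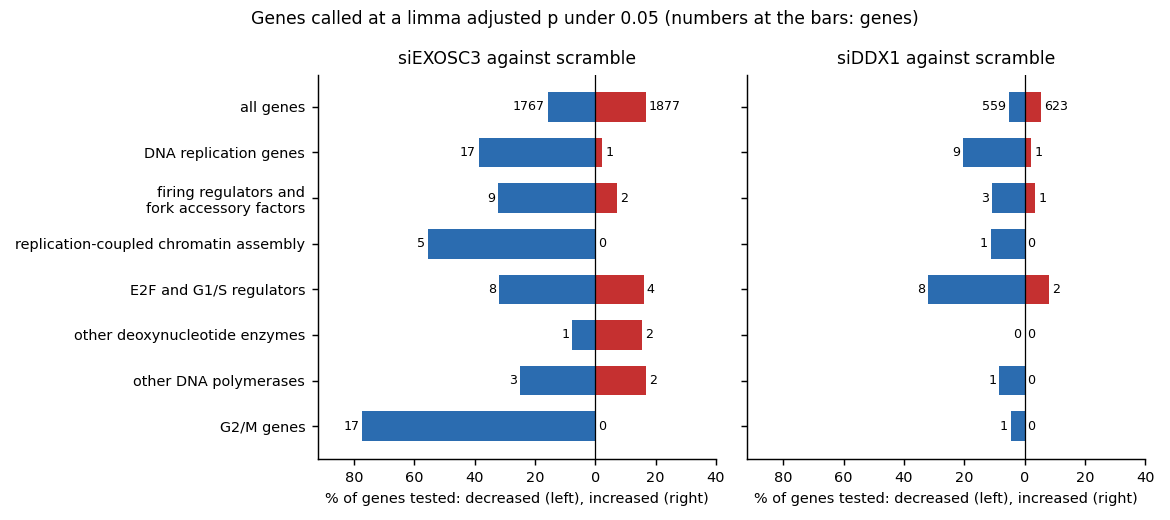
Share of the genes tested that decreased (left of 0) or increased (right of 0) at a limma adjusted p under 0.05, for all genes, the 44 replication genes and the lists of related genes, with the number of genes at each bar. The replication genes show 17 decreased and 1 increased in siEXOSC3 and 9 and 1 in siDDX1.

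The markers of cell identity were read beside these results. Of 11 neuronal and neuroblastoma markers, 9 passed the filter, and Nefl and Nefm had a mean under 1 FPKM. In siEXOSC3, 8 of the 9 rose (88.9%, beside 16.7% of all genes) and 0 fell (beside 15.7%), and the median log2 fold change was 0.69. Over all 11 the summed FPKM was 742 to 753 against 464 to 472 in scramble. In siDDX1, 2 rose (22.2%, beside 5.61% of all genes) and 1 fell (11.1%, beside 5.03%), or 1 to 3 and 0 to 2 without 1 library, with sums of 479 to 499 against 460.4 to 466. The replicate closest to scramble over the replication genes in siEXOSC3, replicate 2, had a neuronal marker median of 0.75, beside 0.66 and 0.62 in replicates 1 and 3.

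Of 12 glial, immune, endothelial and fibroblast markers, 2 passed the filter (Mbp and Pecam1), Col3a1 was listed at 0 in every library, and the sum over all 12 was 9.63 to 13.1 FPKM in siEXOSC3, 8.42 to 9.58 in siDDX1 and 7.14 to 8.32 in scramble. The endothelial marker Pecam1 rose in siEXOSC3 (log2 fold change 0.67, adjusted p = 0.00827). The part of either marker list in the changes of the replication genes was not tested. The 1 fall among the neuronal markers in siDDX1 was lost without any 1 library other than siDDX1 replicate 3, and 1 of the 2 rises was lost without siDDX1 replicate 2 or any scramble library.

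**Figure D5:**
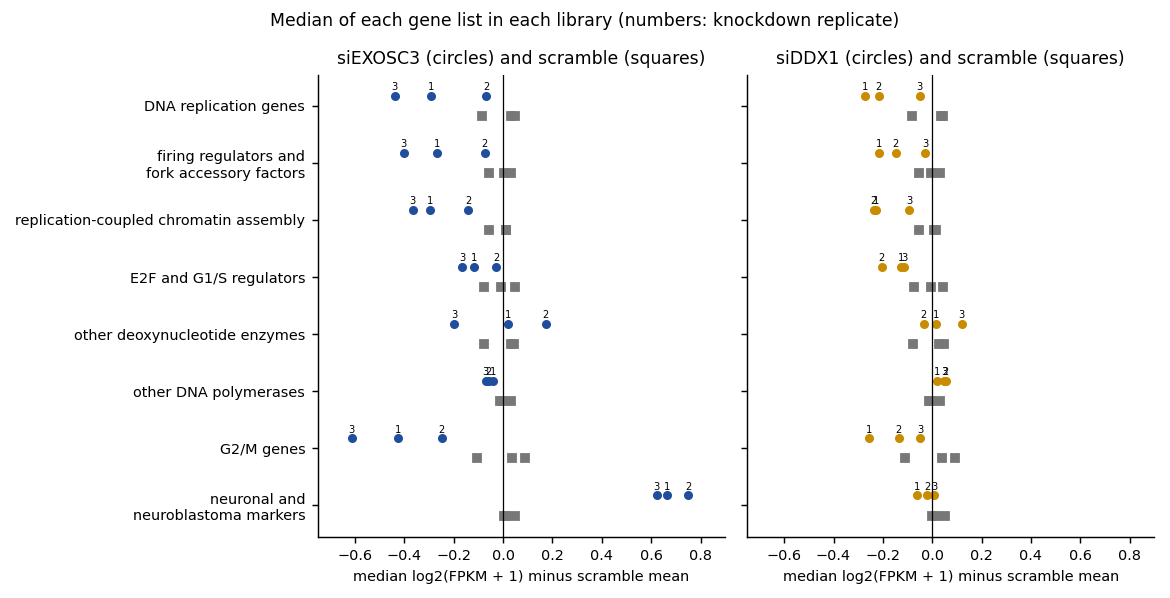
Median over each gene list of log2(FPKM + 1) minus the scramble mean, for each knockdown library (circles, numbered by replicate) and each scramble library against the mean of the other scramble libraries (squares). Over the replication genes siEXOSC3 replicate 2 (-0.07) and siDDX1 replicate 3 (-0.05) lie within the scramble range, while the neuronal markers of all siEXOSC3 libraries lie between 0.62 and 0.75.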

How the data were processed

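RNA was depleted of ribosomal RNA with a Ribo-zero kit, made into nondirectional libraries and sequenced as paired reads. TopHat version 2.1.0 was used by the authors to map them to mm9 and SAMtools to sort them, and FPKM from Cuffdiff version 2.2.1 were deposited for 24318 genes in 2 tables, with a column for each library. Which annotation and which library normalization Cuffdiff used is not given in the sources used here. FPKM holds no read number, so the depth reached by each library is unknown (the study's methods state a target only) and the precision rests on 3 libraries per group.

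Genes averaging 1 FPKM or more across a table's 6 libraries were kept. Their deposited FPKM were put on the log2(FPKM + 1) scale and fitted in R (version 4.3.3) by limma (version 3.58.1), using lmFit and then eBayes with trended variance and no covariate. The two-sided p-values were adjusted over all genes of a table by the Benjamini-Hochberg method, and 0.05 was the threshold. The members, the lists of related genes and markers, and the rule for named genes were chosen with earlier results of these data known. The rule gave values in every library to the 2 members of each role with the largest called change, to members called in both knockdowns and, in a role with no call, to the most abundant member. It named at most 3 called genes of each related list per knockdown, and Orc3 was added after its values were seen.

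Gene positions came from GENCODE vM1 on NCBIM37, the sequence of mm9, and promoter windows from RefSeq on GRCm38.p6. The DRIP-seq libraries were not analysed here. Alternatives were a pseudocount of 0.1, no filter, a mean of at least 5 FPKM, quantile normalization, median centring, a fit without the variance trend, a replicate block, an adjusted p under 0.01 and leaving out each library. Simulated data served to test the fit, with 200 genes changed by 1 on the log2 scale. It called 186 of them among 11242 genes for siEXOSC3, with 9 unchanged genes called, and 191 among 11104 genes for siDDX1, with 4 unchanged genes called. Figures were drawn with matplotlib version 3.10.9.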

Additional observations from a re-analysis of the deposited data

How the results depend on the processing

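The median log2 fold change of the 44 genes stayed below 0 under every alternative run, between -0.38 and -0.20 in siEXOSC3 and between -0.23 and -0.14 in siDDX1 when 1 library was left out. The counts of called genes moved with the libraries left out and with the filter and threshold used. Leaving out 1 library gave 6 to 35 decreased and 0 to 1 increased genes in siEXOSC3, and 1 to 24 decreased and 0 to 1 increased in siDDX1. With no filter on low FPKM, 9 genes decreased in siEXOSC3 and 0 increased in siDDX1. At an adjusted p under 0.01, 5 decreased and 0 increased in siEXOSC3, and 2 decreased and 0 increased in siDDX1. The scramble and knockdown libraries share replicate numbers. The correlations of same-numbered deviations were -0.31 to 0.03 in siEXOSC3 and -0.01 to 0.38 in siDDX1. In siEXOSC3 no library correlated best with its own number. In siDDX1 replicates 2 and 3 did (r = 0.38 and 0.37) and replicate 1 did not. Deviations from a mean of 3 libraries cannot settle whether the numbers pair the libraries. With the replicate number as a block, 7 genes decreased and 0 increased in siEXOSC3, and 12 decreased and 2 increased in siDDX1. Among the named genes the block ended the siEXOSC3 calls of Orc1, Cdc6, Mcm5, Pola2 and Rpa1. The shares of all genes called with no filter, at the stricter threshold and with the block are not given here. These counts therefore cannot be set against their background. A pseudocount of 0.1, a mean of at least 5 FPKM, quantile normalization, median centring and no intensity trend kept every count within 1.5 times the reported one. Of the called results of named genes, 6 of 12 in siEXOSC3 and 1 of 9 in siDDX1 stayed past 0.05 under all alternatives fitted at that threshold, and none changed sign. Among the 44 genes the sign changed under at least 1 alternative for 5 in siEXOSC3 (Orc4, Gins2, Pold1, Rfc2 and Rpa3) and 3 in siDDX1 (Mcm3, Rfc2 and Tyms), none of them called and all within 0.06 of 0 on the log2 scale. The cause of these shifts was not tested. With 3 libraries a group and the depth reached not known, changes near the spread of the scramble libraries could not be resolved.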

Other observations

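The other enzymes of deoxynucleotide metabolism, 13 genes that prepare or remove the precursors of DNA, had 2 increased genes (15.4%, beside 16.7% of all genes) and 1 decreased gene (7.69%, beside 15.7%) in siEXOSC3, with a median log2 fold change of -0.03. Without 1 library, 1 to 3 increased and 0 to 3 decreased, and without siEXOSC3 replicate 3 the median was 0.09. Rrm2b, the small ribonucleotide reductase subunit that p53 induces outside S phase, was at 10.3, 8.39 and 11.7 FPKM in scramble and at 17.4, 18.02 and 18.7 in siEXOSC3. All siEXOSC3 libraries lay above scramble (log2 fold change 0.78, SE 0.11, adjusted p = 0.00251), and the call held without any 1 library. Cmpk1, a nucleotide kinase, had a log2 fold change of 0.25 (adjusted p = 0.0220), and Shmt1, a folate enzyme of thymidylate synthesis, one of -0.40 (adjusted p = 0.0230). The Cmpk1 call was lost without siEXOSC3 replicate 1 or any scramble library, and the Shmt1 call without scramble replicate 1 or 3 (adjusted p up to 0.0832 and 0.0943). In siDDX1 limma called none of the 13, and 2 fell and 1 rose at an unadjusted p under 0.05, as 15.01 and 15.1% of all genes did. Without siDDX1 replicate 3, 3 decreased and 2 increased, beside 15.4 and 16.4% of all genes.

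The DNA polymerases of repair, translesion synthesis and mitochondria had 3 decreased (25%) and 2 increased genes (16.7%) of 12 tested in siEXOSC3, beside 15.7 and 16.7% of all genes, and 1 decreased gene in siDDX1 (8.33%, beside 5.03%). In siEXOSC3 the decreased genes were 1 without scramble replicate 1 or 3, and the increased 1 without scramble replicate 1 or 2 or siEXOSC3 replicate 1. In siDDX1, 2 decreased without siDDX1 replicate 3 and 0 without any other library. Rev1, a translesion polymerase, was at 23.7, 23.9 and 21.5 FPKM in scramble and at 14.9, 14.3 and 14.9 in siEXOSC3 (log2 fold change -0.62, SE 0.07, adjusted p = 0.00113). In siDDX1 it was at 19.5, 18.5 and 17.3 FPKM against 23.5, 23.8 and 21.3 (log2 fold change -0.29, SE 0.07, adjusted p = 0.0410), so that neither knockdown overlapped scramble. Polg2, the accessory subunit of the mitochondrial polymerase, had a log2 fold change of 0.59 in siEXOSC3 (adjusted p = 0.00723), and Polq, of end joining, one of -0.42 (adjusted p = 0.0205). The calls of Rev1 and Polg2 in siEXOSC3 held without any 1 library. The Polq call was lost without scramble replicate 1 or 3 or siEXOSC3 replicate 1 (adjusted p up to 0.0766), and the Rev1 call in siDDX1 without any 1 library other than siDDX1 replicate 3 (adjusted p up to 0.158).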
